A study of Mus musculus with 8 samples.

Results

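The insulin-like growth factor (IGF) binding proteins Igfbp1, Igfbp2, Igfbp3 and Igfbp4 were read in mouse livers that overexpressed A20, an inhibitor of NF-κB, or the control protein β-galactosidase (βgal), after and before extended liver resection. The members were all probe sets annotated to these 4 genes, 10 probe sets in all, and each passed the minimum signal, so that 4 of the 17790 genes tested are described here. Igfbp4 was read by 6 probe sets, Igfbp3 by 2, and Igfbp1 and Igfbp2 by 1 each. There were 4 groups of 2 arrays each. The post-A20 group was remnant liver taken 24 hours after a 78% resection from mice given a recombinant adenovirus with human A20 (rAd.A20). The post-βgal group was the same tissue at the same time from mice given the control virus rAd.βgal. The pre-A20 and pre-βgal groups were the lobes removed at the resection, 5 days after each virus was given, so that there is no group without virus. No group had a sham operation either. In comparisons of after with before, resection therefore cannot be told apart from surgery, lobe or the 24 hours between. All mice were of the BALB/c strain and 8 weeks old, each array held RNA pooled from 3 livers, and the transgene was expressed in 30 to 40% of hepatocytes. The treatment record of both post-A20 samples repeated the wording of the control virus, while their titles and sources named A20, which was followed here.

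IGF binding proteins are secreted proteins that hold IGF1 and IGF2 in the circulation and in tissues and so set how much growth factor reaches its receptor. The liver is the main source of circulating IGF1. Among the binding proteins, Igfbp1 is the acute one, made by hepatocytes, raised in fasting and stress, lowered by insulin and known as an immediate early gene of liver regeneration. Igfbp2 is a hepatocyte product that is high in fetal liver and in fasting. Igfbp3 carries most circulating IGF together with the acid-labile subunit, and in rodent liver is made by non-parenchymal cells. Igfbp4 is a liver product that mostly inhibits IGF action.

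The promoter of Igfbp1 is shown because its level moved most among the members and because it holds the letters of the insulin response element, the site through which insulin is known to lower Igfbp1 transcription by way of FOXO1. The 250 bases before its start are given from RefSeq, build GRCm38.p6, chr11:7197537-7197786, + strand, with the insulin response element and, nearer the start, the ATTAAC of an HNF1 site in capitals.
Igfbp1: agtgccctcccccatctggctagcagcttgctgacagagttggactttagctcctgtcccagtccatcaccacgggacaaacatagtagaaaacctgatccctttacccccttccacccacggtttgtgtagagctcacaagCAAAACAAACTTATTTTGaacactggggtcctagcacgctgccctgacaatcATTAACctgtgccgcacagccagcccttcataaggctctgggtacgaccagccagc
The element lies 108 to 91 bases before the start, and ATTAAC lies 56 to 51 bases before it. Searched on both strands of the 250 bases before the start of 32851 promoters, CAAAACA was found in 5.56%, TATTTTG in 3.95% and ATTAAC in 6.43%. CAAAACANNNNTATTTTG, which spans the whole element, has the letters and spacing of the Igfbp1 element itself, so its match there was given in advance. It was found in 1 promoter (0.00304%), that of Igfbp1. That count does not show whether other promoters hold an insulin response element with other letters or spacing. None of the 4 strings was found in these windows of Igfbp2 (2 promoters), Igfbp3 or Igfbp4, which says only that these letters are not there. Igfbp1 and Igfbp3 are next to each other on chromosome 11, on opposite strands with 0 genes between them. Igfbp2 lies on chromosome 1 beside Igfbp5 and Igfbp4 on chromosome 11.

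The values are normalized fluorescence intensities on a linear scale, 1 per probe set and array. They give no level of one probe set relative to another. Fold changes are on the log2(intensity + 16) scale with the standard error (SE) of the fit, and adjusted p-values are limma's after Benjamini-Hochberg adjustment over the 17790 genes. A gene was called where the adjusted p was under 0.05. The β-actin ratio, the 3′ signal of the β-actin control over its 5′ signal, grows as RNA degrades. It was 3.64 in post-βgal replicate 1 and 7.0 in pre-βgal replicate 1, against 1.27 to 1.62 in the other 6 arrays. Both arrays belong to βgal groups, so every comparison that uses a βgal group holds at least 1 of them. The fitted spread is shared by all 4 groups, so these 2 arrays also enter the SE for resection in A20 livers. Summed signals of 6 hepatocyte markers were 84849 to 90378 in post-A20, 82426 to 84274 in post-βgal, 84227 to 86933 in pre-A20 and 77160 to 81266 in pre-βgal arrays, and 0 of the 6 were called in any comparison. In whole liver RNA, fewer cells of a type and less RNA per cell cannot be told apart.

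**Figure D1:**
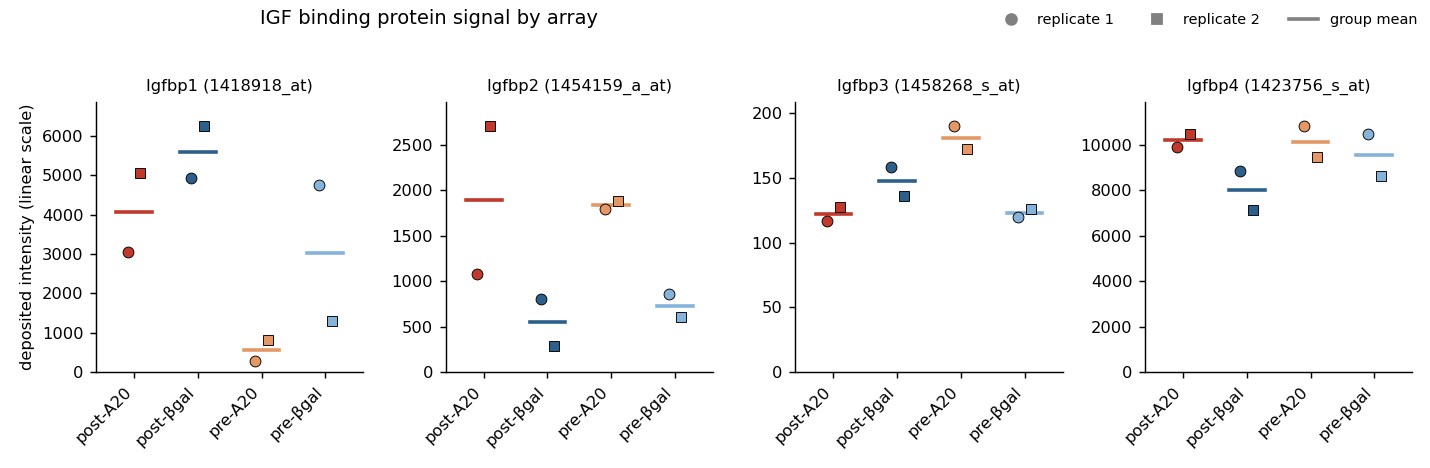
Normalized intensity (linear scale, from 0) of the probe set of highest mean signal of each binding protein gene by group, with circles for replicate 1, squares for replicate 2 and a bar for the mean of the 2 arrays. The pre-A20 arrays hold the lowest Igfbp1 and the highest Igfbp3 values of the 8, the 4 A20 arrays the highest Igfbp2 values, and the post-βgal arrays the lowest Igfbp4 mean.

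Igfbp1 signal was higher after resection than before it and was lowest in A20 livers before resection. Its signal was 3049 and 5066 in the post-A20 arrays, 4924 and 6242 in the post-βgal arrays, 278 and 817 in the pre-A20 arrays, and 4747 and 1284 in the pre-βgal arrays. The 2 pre-A20 arrays were the lowest of all 8, and every array after resection was above every array before it within its own virus group. The 2 pre-βgal arrays stood far apart, and the higher of them is the one with the β-actin ratio of 7.0.

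Averaged over both viruses, Igfbp1 was higher after than before resection by 2.08 (SE 0.45) on the log2 scale (limma, adjusted p = 0.0309). In that comparison 6.14% of all genes were called and 3.62% were called higher. Igfbp1 was the 1 member of 4 called there. The call was lost when any of 5 arrays was left out. Without post-A20 replicate 1 limma's adjusted p was 0.0648, without post-A20 replicate 2 0.130, without post-βgal replicate 1 0.0775, without post-βgal replicate 2 0.106 and without pre-A20 replicate 1 0.102, while the log2 fold change over all alternatives stayed between 1.61 and 2.63. With both low-integrity arrays left out it was 2.63 (adjusted p = 0.0168). Tested over the 33500 probe sets, where 3.56% were called, it was not called (limma adjusted p = 0.0621).

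Within each virus group the rise in Igfbp1 did not reach the threshold. In A20 livers the post-A20 arrays averaged 4058 ± 1426 and the pre-A20 arrays 547 ± 381 (SD, n = 2 arrays each), a log2 fold change of 3.0 (SE 0.63, limma adjusted p = 0.0544), which is 7.98-fold. In βgal livers the post-βgal arrays averaged 5583 ± 932 and the pre-βgal arrays 3015 ± 2448 (SD, n = 2 arrays each), a log2 fold change of 1.16 (SE 0.63, limma adjusted p = 0.295), where 3.99% of genes and 0 of the 4 members were called. The value in A20 livers was called in 7 of 22 alternatives, among them quantile normalisation (adjusted p = 0.0493), the fit of only the 4 A20 arrays (0.0231) the fit with the β-actin ratio as a covariate (0.0127) and the fit with the replicate number as a block within each virus (0.0118). That block would apply if arrays of one number came from the same mice before and after resection, which the sources used here do not state. The value in βgal livers turned on pre-βgal: it was 2.10 without replicate 1 and 0.22 without replicate 2, and neither was called (limma adjusted p = 0.0609 and 0.835).

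Set against βgal livers, Igfbp1 in A20 livers had a lower mean at both times, but the arrays separated only before resection. The log2 fold change of post-A20 over post-βgal was −0.49 (SE 0.63, limma adjusted p = 0.669), with overlapping arrays and a 95% interval of −1.93 to 0.95. That of pre-A20 over pre-βgal was −2.33 (SE 0.63, limma adjusted p = 0.0753), with arrays that did not overlap. It was −1.39 when pre-βgal replicate 1 was dropped and −1.58 when pre-A20 replicate 1 was. With pre-βgal replicate 2 dropped it was −3.27 and was called (adjusted p = 0.00934). Averaged over both times it was −1.41 (SE 0.45, limma adjusted p = 0.0843). The response to resection in A20 livers minus that in βgal livers was 1.84 (SE 0.89, limma adjusted p = 0.327), so the responses were not shown to differ.

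Igfbp2 differed with the virus and not detectably with resection. Its signal was 1085 and 2706 in the post-A20 arrays, 800 and 291 in the post-βgal arrays, 1791 and 1883 in the pre-A20 arrays, and 859 and 602 in the pre-βgal arrays. All 4 A20 arrays were above all 4 βgal arrays, but the share of all genes with such a separation was not counted. The replicates agreed closely in pre-A20 and spread widely in both groups after resection.

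Averaged over both times, Igfbp2 was higher in A20 than in βgal livers by 1.56 (SE 0.36) on the log2 scale (limma, adjusted p = 0.0361), which is 2.95-fold, in a comparison where 8.59% of all genes were called and 3.39% were called higher. It was the 1 member of 4 called there. The log2 fold change was 1.21 to 2.04 over 20 alternatives and passed the threshold in 14 of them. The call was lost without post-A20 replicate 2 (limma adjusted p = 0.104), post-βgal replicate 2 (0.0872), pre-A20 replicate 1 (0.0891) or pre-A20 replicate 2 (0.114), and with the variance model fitted without a trend (0.0502) or over all probe sets (0.0540). With the adjustment also made over the 33500 probe sets, of which 3.62% were called, limma's adjusted p was 0.0642.

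At each time alone Igfbp2 was not called. The post-A20 arrays averaged 1895 ± 1146 and the post-βgal arrays 546 ± 360 (SD, n = 2 arrays each), a log2 fold change of 1.79 (SE 0.50, limma adjusted p = 0.112). The pre-A20 arrays averaged 1837 ± 64.7 and the pre-βgal arrays 731 ± 182 (SD, n = 2 arrays each), a log2 fold change of 1.33 (SE 0.50, limma adjusted p = 0.160). Arrays did not overlap at either time. The change with resection was −0.10 (95% interval −1.25 to 1.05) in A20 livers and −0.55 (−1.71 to 0.60) in βgal livers, intervals wide enough to hold a change of more than 2-fold either way in A20 livers. The difference between these responses was 0.46 (SE 0.71, limma adjusted p = 0.776).

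Igfbp3 had the smallest differences of the 3 members called, together with the smallest spread. In the probe set of higher signal, 1458268_s_at, the values were 117 and 128 in the post-A20 arrays, 159 and 136 in the post-βgal arrays, 190 and 172 in the pre-A20 arrays, and 120 and 126 in the pre-βgal arrays. The second probe set, 1423062_at, gave 71.6 and 83.7 in post-A20, 204 and 113 in post-βgal, 180 and 164 in pre-A20, and 101 and 115 in pre-βgal arrays. In both probe sets, A20 arrays lay above βgal arrays before resection and below them after it, without overlap. Both read around the middle of an array's signals or lower. Over the 8 arrays the percentile was 36.3 to 56.6 for 1458268_s_at and 18.6 to 59.8 for 1423062_at. The minimum signal is not a detection call, so how far these values lie above background was not tested. The same limit applies to the Igfbp3 calls.

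The pre-A20 arrays averaged 181 ± 12.5 and the pre-βgal arrays 123 ± 4.70 (SD, n = 2 arrays each), so Igfbp3 was higher in A20 livers before resection by 0.50 (SE 0.10) on the log2 scale (limma, adjusted p = 0.0348), or 1.42-fold. It was the 1 member of 4 called in that comparison, where 4.63% of all genes were called and 1.31% were called higher. In A20 livers the post-A20 arrays averaged 122 ± 7.57, and Igfbp3 fell by 0.51 (SE 0.10) with resection on the log2 scale (limma, adjusted p = 0.0476), to 0.702 of its level, in a comparison where 2.01% of genes were called and 0.793% were called lower. Both calls use the same 2 pre-A20 arrays and so are not separate observations. The call before resection was lost in 10 of 21 alternatives and that with resection in 10 of 22. Among these were the variance model without a trend (limma adjusted p = 0.0618 before resection, 0.0829 with resection in A20 livers) and that over all probe sets (0.0529 and 0.0718).

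The other Igfbp3 values were on the same pattern but under no call. The log2 fold change of post-A20 over post-βgal was −0.24 (SE 0.10, limma adjusted p = 0.229), with post-βgal arrays at 147 ± 16.1 (SD, n = 2 arrays), and that of post-βgal over pre-βgal was 0.23 (SE 0.10, limma adjusted p = 0.216). The response to resection in A20 livers minus that in βgal livers was −0.74 (SE 0.15, limma adjusted p = 0.148), with a 95% interval of −1.07 to −0.41. That was a comparison where 5 genes (0.0281%) were called, and over the alternatives limma's adjusted p was 0.0506 to 0.430. Through 1423062_at, tested in the same model over 33500 probe sets, the values were −0.85 for A20 over βgal after resection (adjusted p = 0.145), 0.60 before resection (0.194), −1.01 for resection in A20 livers (0.108), 0.44 in βgal livers (0.314) and −1.45 for the difference of responses (0.233). Over probe sets, 1458268_s_at had an adjusted p of 0.0640 for A20 over βgal before resection and of 0.0896 for resection in A20 livers, so neither Igfbp3 probe set was called over probe sets, where 1.24% and 0.612% of probe sets were in these comparisons.

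Summed markers of sinusoidal endothelial and stellate cells, both non-parenchymal, were also highest in the pre-A20 arrays but did not follow Igfbp3 in the other groups. Those of Kupffer cells, non-parenchymal as well, were lowest in the pre-A20 arrays, at 2288 to 2328. The summed signal of 6 sinusoidal endothelial markers was 2529 to 2797 in post-A20, 2512 to 2839 in post-βgal, 3357 to 3453 in pre-A20 and 2916 to 2930 in pre-βgal arrays. That of 6 stellate cell markers was 4493 to 5276 in post-A20, 3797 to 3974 in post-βgal, 5711 to 5898 in pre-A20 and 3870 to 4677 in pre-βgal arrays. Both sums were highest in the 2 pre-A20 arrays, where Igfbp3 was highest. All 12 markers passed the minimum signal, a mean of 40 or more in any group, which is not a detection call. A sum weighs bright markers most. Dcn averaged 3202 in pre-A20 and 2175 in pre-βgal arrays, and Clec4g 1499 and 1106. The means of Des, Lyve1, Pecam1 and Kdr were lower in pre-A20 than in pre-βgal arrays, and that of Col1a1 was level (309 and 308). The other markers had higher means in pre-A20 arrays. After resection the stellate sum was higher in A20 livers while Igfbp3 was lower in them, and the endothelial sums overlapped. None of the 12 was called for A20 over βgal before resection. For resection in A20 livers, the comparison of the other Igfbp3 call, 2 of the 12 were called, in opposite directions. Lyve1, an endothelial hyaluronan receptor, was higher after resection (1.35, SE 0.19, limma adjusted p = 0.0145), with 273 and 443 in post-A20, 660 and 719 in post-βgal, 129 and 125 in pre-A20, and 180 and 173 in pre-βgal arrays, so that it was lowest where Igfbp3 was highest. Colec11, a lectin of stellate cells, was lower (log2 fold change −1.20, SE 0.18, limma adjusted p = 0.0199), with 309 and 313 in post-A20, 244 and 180 in post-βgal, 671 and 804 in pre-A20, and 613 and 486 in pre-βgal arrays. Both were called in the same directions for resection in βgal livers (1.87 and −1.32), where the endothelial receptor Kdr was called lower (−1.01). Averaged over both times, Oit3 was called higher in A20 livers (0.45) and Lyve1 lower (−0.69). The part of these cells in the Igfbp3 result was not tested.

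Neutrophil markers (4 of 5 tested) summed to 1322 to 1513 in post-A20, 4039 to 4646 in post-βgal, 959 to 1045 in pre-A20 and 2029 to 2860 in pre-βgal arrays, and those of Kupffer cells (6 of 6) to 3469 to 3782, 2738 to 3531, 2288 to 2328 and 3429 to 3862 in the same groups. Both sums were lowest in pre-A20, where Igfbp1 was lowest and Igfbp3 highest, but not every marker was lowest there. Among neutrophil markers the difference lay mostly in S100a8 and S100a9, calcium-binding proteins of neutrophils. They were called lower in A20 livers before resection (log2 fold changes −2.08 and −2.65, limma adjusted p = 0.0109 and 0.0078) and after it (−2.23 and −2.51, limma adjusted p = 0.0129 and 0.00718). Elane, the neutrophil elastase, had 342 and 376 in post-A20, 358 and 309 in post-βgal, 346 and 356 in pre-A20, and 352 and 329 in pre-βgal arrays, with no call. Of the Kupffer cell markers 0 were called for A20 over βgal before or after resection, and averaged over both times the scavenger receptor Marco was called higher (0.46, limma adjusted p = 0.0306) and the lysosomal protein Cd68 lower (−0.55, limma adjusted p = 0.0321) in A20 livers. Marco had its 2 highest values in pre-A20, with 152 and 205 in post-A20, 137 and 122 in post-βgal, 248 and 254 in pre-A20, and 184 and 159 in pre-βgal arrays. The part of these cells in any binding protein result was not tested.

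**Figure D2:**
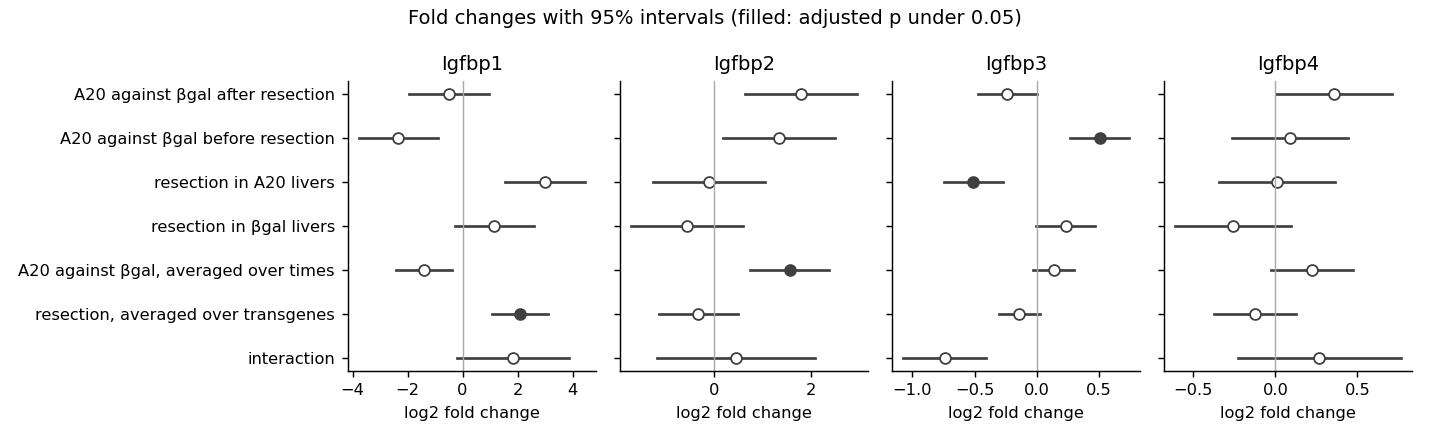
Log2 fold change of each binding protein gene in the 7 comparisons, with 95% intervals from the limma model and filled points where the adjusted p over 17790 genes was under 0.05. The 4 filled points are Igfbp1 for resection averaged over viruses, Igfbp2 for A20 over βgal averaged over times, and Igfbp3 for A20 over βgal before resection and for resection in A20 livers.

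Igfbp4 was called in no comparison. Through its probe set of highest signal, 1423756_s_at, the values were 9907 and 10492 in the post-A20 arrays, 8873 and 7145 in the post-βgal arrays, 10817 and 9457 in the pre-A20 arrays, and 10497 and 8622 in the pre-βgal arrays. The 2 post-A20 arrays lay above the 2 post-βgal arrays, and the arrays overlapped between pre-A20 and pre-βgal and, within each virus group, between after and before resection.

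After resection, all 6 Igfbp4 probe sets were higher in A20 than in βgal livers with arrays that did not overlap, by log2 fold changes of 0.32 to 0.96. Of all genes, 33.7% had higher, non-overlapping arrays in that comparison, and the 6 probe sets read 1 gene in the same 4 arrays. The value of 1423756_s_at was 0.36 (SE 0.15, limma adjusted p = 0.229), with a 95% interval of 0.0037 to 0.71, and 1.42% of all genes and 0 of the 4 members were called there, while 3 of the 4 had an unadjusted limma p under 0.05, as did 21.5% of all genes. Before resection it was 0.09 (SE 0.15, limma adjusted p = 0.766), and with resection 0.01 (95% interval −0.34 to 0.36) in A20 livers and −0.26 (−0.61 to 0.10) in βgal livers. In βgal livers 3 of the 6 probe sets were lower after resection without overlap, in a comparison where 33% of genes were, and 0 of 6 in A20 livers.

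The Igfbp4 probe sets split into a group of 4 that ran together and a pair that did not follow them. Across the 8 arrays the log2 values of 1423756_s_at, 1437405_a_at, 1423757_x_at and 1437406_x_at correlated at r = 0.900 to 0.986 with each other, whereas 1421992_a_at and 1421991_a_at correlated at 0.946 with each other and at 0.0463 to 0.549 with the 4. These are descriptions over arrays of one experiment. 1421991_a_at gave 2145 and 3156 in post-A20, 1043 and 1691 in post-βgal, 4101 and 2460 in pre-A20, and 413 and 2993 in pre-βgal arrays. Its lowest 2 values, 413 and 1043, are those of pre-βgal replicate 1 and post-βgal replicate 1, the arrays with β-actin ratios of 7.0 and 3.64. 1421992_a_at gave 6289 and 7002 in post-A20, 4212 and 4611 in post-βgal, 7875 and 5868 in pre-A20, and 3627 and 7124 in pre-βgal arrays, with its lowest 2 values in the same 2 arrays. The part of RNA integrity in these values was not tested. The plot of the Igfbp4 probe sets by array shows the 2 depressed arrays over their β-actin ratios.

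**Figure D3:**
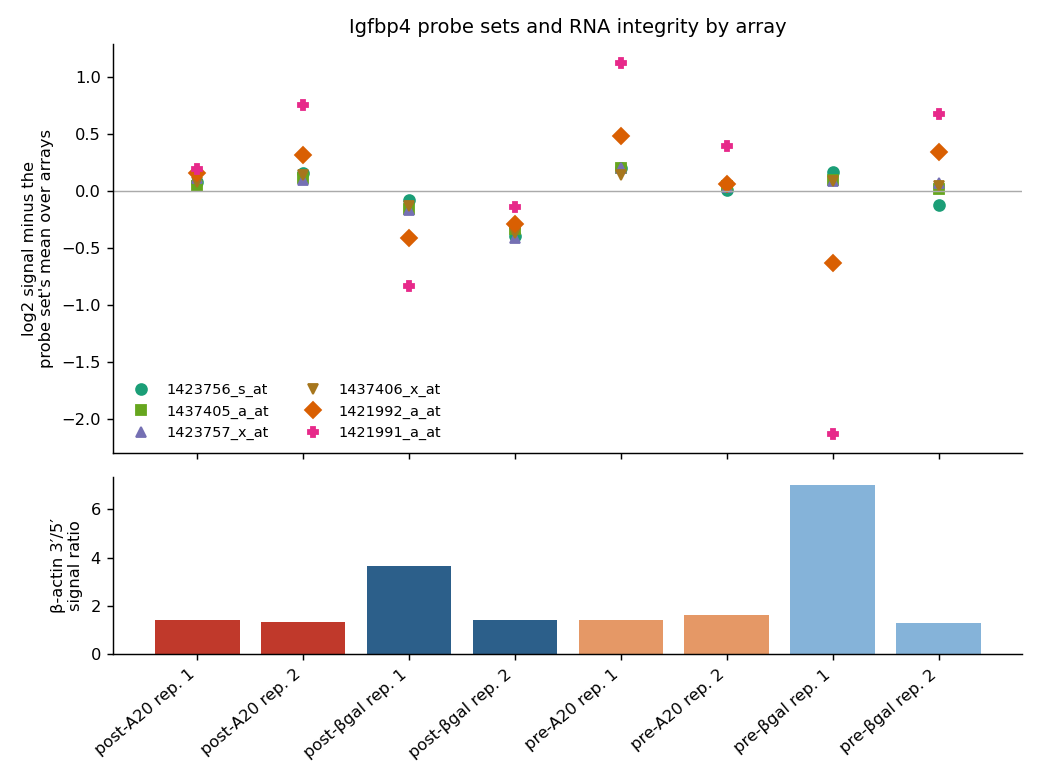
Upper panel, log2 signal of the 6 Igfbp4 probe sets in each array minus that probe set's mean over the 8 arrays. Lower panel, β-actin ratio (3′ over 5′ signal, from 0). In pre-βgal replicate 1, with a ratio of 7.0, 1421991_a_at was at −2.14 and 1421992_a_at at −0.63 while the other 4 probe sets were at 0.08 to 0.16.

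Counted over the 4 genes, the arrays did not overlap for 3 genes in post-A20 against post-βgal (Igfbp2 and Igfbp4 higher, Igfbp3 lower), where 60.1% of all genes did not overlap, and for 3 genes in pre-A20 against pre-βgal (Igfbp2 and Igfbp3 higher, Igfbp1 lower), where 51.3% did not. With resection they did not overlap for 2 genes in A20 livers (Igfbp1 higher, Igfbp3 lower), where 51.7% of genes did not, and for 2 genes in βgal livers (Igfbp1 and Igfbp3 higher), where 53.5% did not. The members' median log2 fold change was 0.06 after and 0.30 before resection for A20 over βgal, beside 0.03 and −0.03 over all genes. For resection it was −0.04 in A20 and −0.01 in βgal livers, beside 0.02 and −0.05 over all genes. The 4 genes thus did not share a direction: Igfbp1 and Igfbp2 had opposite signs in both A20 comparisons, and Igfbp1 and Igfbp3 in resection of A20 livers. Over the 8 arrays Pearson's r between members was −0.69 for Igfbp1 and Igfbp3, the genes that neighbour each other, 0.83 for Igfbp2 and Igfbp4, and −0.41 to 0.32 for the other pairs, which describes arrays that share groups.

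A criterion modelled on the study's methods required the lower end of the 90% interval of the fold change to reach 1.5. The interval was that of the limma model, from the spread between arrays. The study used the lower confidence bound of dChip, a different quantity, so these are not the study's calls. Igfbp1 met the limma-based criterion for A20 over βgal before resection (where 2.31% of genes did) and for resection in A20 livers (1.72%). It also met it for resection averaged over viruses (1.8%) and for A20 over βgal averaged over times (1.28%). Igfbp2 met it for A20 over βgal after resection (1.34%) and averaged over times. Igfbp3 and Igfbp4 met it in no comparison, and no member met it for resection in βgal livers (2.19%) or for the difference of responses (1.37%). The plot of fold changes under each setting shows how far these values moved with the processing.

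**Figure D4:**
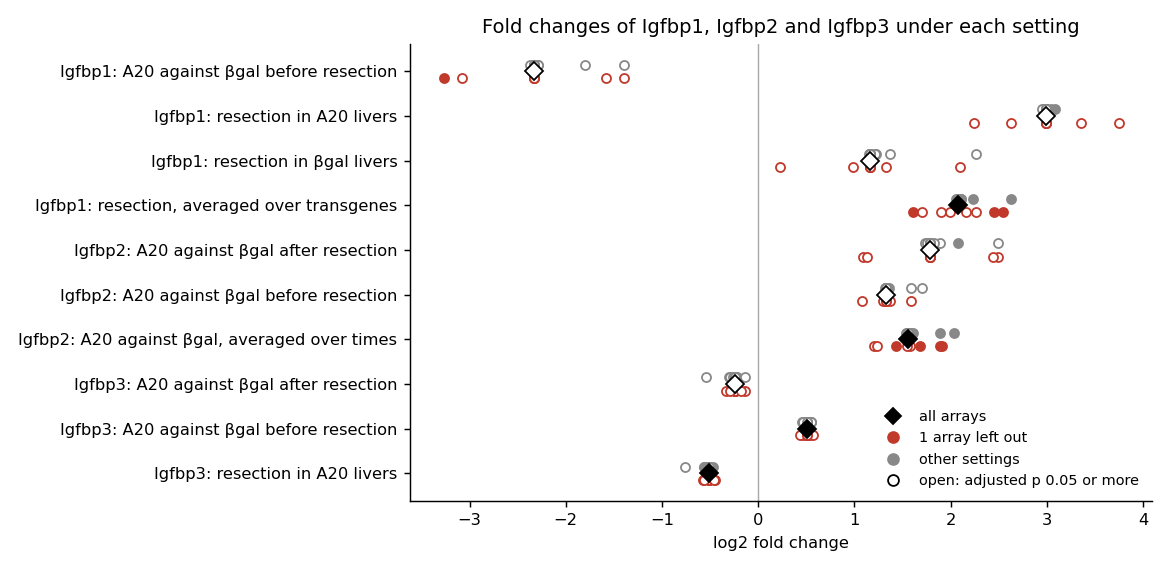
Log2 fold changes of Igfbp1, Igfbp2 and Igfbp3 with all arrays (diamonds), with 1 array left out (red) and under the other settings (grey), with filled symbols where the adjusted p was under 0.05. Every value plotted has the sign of its diamond. Igfbp1 for A20 over βgal before resection runs between −3.27 and −1.39, and Igfbp3 for the same comparison between 0.44 and 0.57.

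Of the other genes of the IGF system, 19 of 19 were tested and 2, Igfals and Htra1, were called in any comparison. For A20 over βgal 1 was called after resection (1.42% of all genes), 0 before it (4.63%) and 1 averaged over times (8.59%). With resection 1 was called in A20 livers (2.01%), 2 in βgal livers (3.99%) and 1 averaged over viruses (6.14%), and 0 for the difference of responses (0.0281%). Igfals, the acid-labile subunit that binds Igfbp3 and IGF in the circulation, had 873 and 730 in the post-A20 arrays, 379 and 342 in the post-βgal arrays, 1882 and 1726 in the pre-A20 arrays, and 961 and 1237 in the pre-βgal arrays. Every array after resection was below every array before it within its virus group, and A20 arrays were above βgal arrays at both times. Igfals fell by 1.16 (SE 0.19, limma adjusted p = 0.0232) with resection in A20 livers and by 1.56 (SE 0.19, limma adjusted p = 0.00644) in βgal livers on the log2 scale. It was higher in A20 livers after resection by 1.12 (SE 0.19, limma adjusted p = 0.0369), and before resection the value was 0.72 (SE 0.19, limma adjusted p = 0.0668). Averaged over both times it was called higher in A20 livers (0.92, SE 0.13, limma adjusted p = 0.00997). Its responses to resection differed by 0.40 (SE 0.26, limma adjusted p = 0.457).

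The ligand Igf1 was called in no comparison. Its signal was 6086 and 6592 in post-A20, 5581 and 6169 in post-βgal, 6282 and 6822 in pre-A20, and 3303 and 5415 in pre-βgal arrays. The lowest of these, 3303, was the array with the β-actin ratio of 7.0, and the log2 fold change of pre-A20 over pre-βgal was 0.63 (SE 0.22, limma adjusted p = 0.133). Igf2, the fetal ligand, had values of 255 to 349 in all 8 arrays.

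The receptors Igf1r, Igf2r and Insr were called in no comparison (0 of 3), with log2 fold changes of −0.40 to 0.42 in the 4 comparisons of groups. The same held for Igfbp5, Igfbp6 and Igfbp7 (0 of 3), among which Igfbp5, the neighbour of Igfbp2, had the largest difference. It gave 781 and 663 in pre-A20 arrays and 1071 and 1249 in pre-βgal arrays (log2 fold change −0.67, SE 0.17, limma adjusted p = 0.0597). Among proteases that cut the binding proteins and their inhibitors (Pappa, Pappa2, Htra1, Adam12, Stc1 and Stc2), 1 of 6 was called. Htra1, a secreted serine protease, had 363 and 299 in post-βgal and 198 and 219 in pre-βgal arrays (log2 fold change 0.62, SE 0.13, limma adjusted p = 0.041). In A20 livers it had 209 and 247 after and 235 and 220 before resection, and the difference between the responses was −0.63 (SE 0.19, limma adjusted p = 0.181). None of the receptor adaptors Irs1, Irs2, Grb10 and Shc1 was called.

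**Figure D5:**
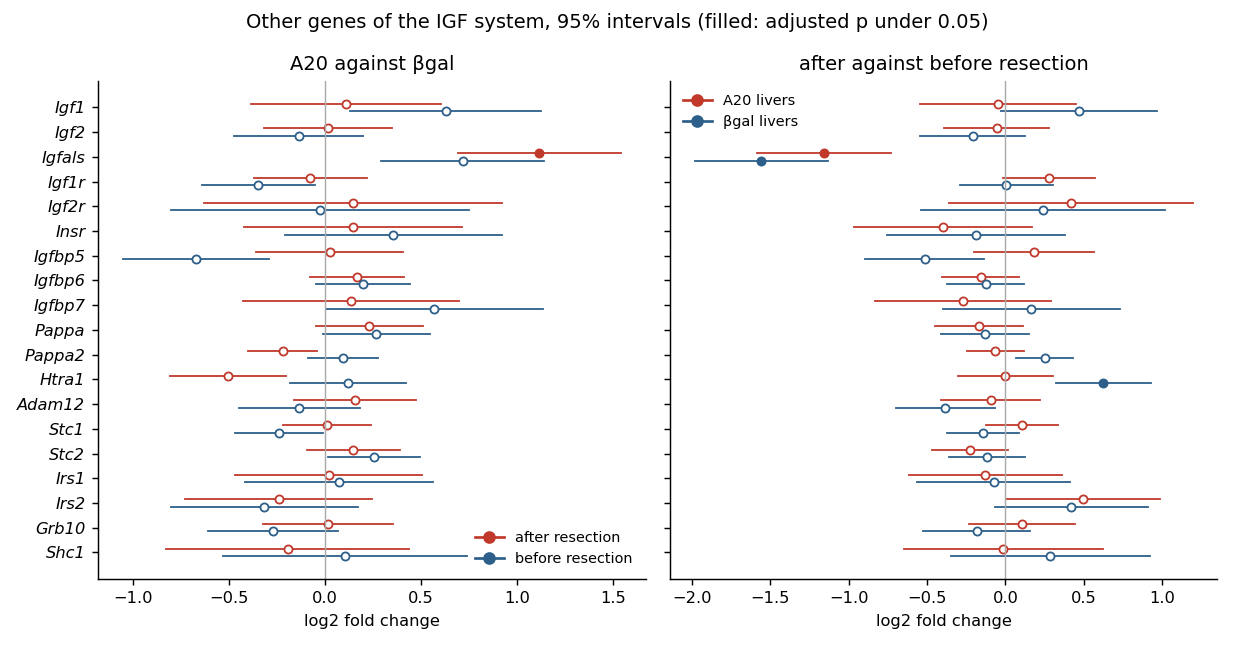
Log2 fold changes with 95% intervals of the 19 other IGF system genes for A20 over βgal (left; red after, blue before resection) and for after over before resection (right; red A20, blue βgal livers), filled where the adjusted p was under 0.05. The filled points are Igfals for A20 over βgal after resection and for resection in both virus groups, and Htra1 for resection in βgal livers.

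Igfbp1 is known to be controlled by 4 pathways that were listed: insulin and FOXO genes, growth hormone signalling, ATF4 targets and hypoxia targets. With resection averaged over viruses, 2 of 9 insulin and FOXO genes tested (10 listed) were called higher and 2 lower, among a background of 3.62% of genes higher and 2.52% lower. Pdk4, a kinase that spares glucose and is a FOXO target, was one of those higher, by 2.66 (SE 0.19, limma adjusted p = 0.000407), with 919 and 1304 in post-A20, 735 and 1154 in post-βgal, 87.1 and 84.0 in pre-A20, and 305 and 191 in pre-βgal arrays. As for Igfbp1, its 2 pre-A20 arrays were the lowest of all 8, and it was called lower in pre-A20 than in pre-βgal (log2 fold change −1.34, SE 0.28, limma adjusted p = 0.0348). Ppargc1a, a coactivator of gluconeogenesis, was the other one higher, by 0.91 (SE 0.14, limma adjusted p = 0.00857). G6pc, the last enzyme of glucose release and also known as a FOXO target, was lower by 0.78 (log2 fold change −0.78, SE 0.14, limma adjusted p = 0.014), and Srebf1, a driver of lipid synthesis that insulin raises, was lower (log2 fold change −1.10, SE 0.14, limma adjusted p = 0.00447). Pck1, Foxo1, Foxo3, Akt1 and Akt2 were not called for resection averaged over viruses. For A20 over βgal before resection, Pdk4 was the 1 of 9 insulin and FOXO genes called, where 4.63% of all genes were. The list's median log2 fold change there was 0.10. Pck1, G6pc, Foxo3 and Akt2 were higher there and Foxo1 and Akt1 lower, none of them called.

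Of 6 growth hormone axis genes, 0 were higher and 1 was lower with resection averaged over viruses: the receptor Ghr, at −0.98 (SE 0.12, limma adjusted p = 0.00292), which was also higher in A20 than in βgal livers after resection (1.14, SE 0.16, limma adjusted p = 0.0263). Jak2, the kinase of that receptor, was lower in pre-A20 than in pre-βgal livers (log2 fold change −1.20, SE 0.19, limma adjusted p = 0.0206). Of 8 ATF4 list genes, 3 were called higher and 0 lower with resection averaged over viruses, namely Fgf21 (0.53), Asns (0.76) and Atf4 (0.49). Fgf21, a hormone of fasting liver, was lower in post-A20 than in post-βgal livers (log2 fold change −0.87, SE 0.14, limma adjusted p = 0.0353). Atf3, a stress factor of that list, had 499 and 574 in post-A20, 290 and 359 in post-βgal, 173 and 178 in pre-A20, and 592 and 386 in pre-βgal arrays. It was lower in pre-A20 than in pre-βgal (log2 fold change −1.37, SE 0.20, limma adjusted p = 0.0156) and higher after than before resection in A20 livers (1.53, SE 0.20, limma adjusted p = 0.011). For A20 over βgal before resection it was the 1 of 8 ATF4 list genes called, and the list's median was −0.19. Chac1 and Trib3 were higher there and the other list genes lower, none of them called. Of 8 hypoxia list genes, 2 were higher and 0 lower with resection averaged over viruses: Egln3 by 1.22 (SE 0.18, limma adjusted p = 0.00638) and Adm by 0.72 (SE 0.09, limma adjusted p = 0.00331).

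The genes whose log2 signal ran most like each member over the 8 arrays were found over all genes tested, as a description of arrays that share groups. For Igfbp1 they were Nucb2 (Pearson's r = 0.974), Klf6 (0.968) and Flvcr1 (0.963). Klf6, a zinc finger factor of the immediate early kind, had 613 and 519 in post-A20, 633 and 710 in post-βgal, 133 and 175 in pre-A20, and 697 and 292 in pre-βgal arrays. Its low pre-A20 arrays and high value of pre-βgal replicate 1, as in Igfbp1, follow from its being picked for likeness to Igfbp1. For Igfbp2 they were Zdhhc22 (0.958), Dydc1 (0.944) and Ehd3 (0.938). For Igfbp3 they were Vsig2 (0.980), Usp10 (0.962) and Gm3924 (0.954), and for Igfbp4 Kazn (0.983), Acaa2 (0.952) and 2900026A02Rik (0.951). Acaa2, the mitochondrial thiolase of fatty acid oxidation, had 7375 and 7493 in post-A20, 5656 and 4817 in post-βgal, 7736 and 7279 in pre-A20, and 7354 and 6140 in pre-βgal arrays, with its lowest 2 values in post-βgal.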

How the data were processed

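Liver RNA pooled from 3 mice per array was hybridised to 8 Affymetrix mouse genome arrays, 2 in each of 4 groups. The deposited table holds intensities that the authors normalized, on a linear scale. The methods name dChip and the sample records MAS5, without saying which of them made it. From it, 16 was added, log2 was taken, and 33500 probe sets with 1 gene symbol and a mean of 40 or more in any group were kept. A gene was represented by the probe set of highest mean (17790 genes; 932 probe sets with several symbols and 9160 with none were left out). A model with 1 mean per group was fitted in limma 3.58.1 (R 4.3.3) with a variance trend (residual df 4, prior df 4.52), with Benjamini-Hochberg adjustment in each of 7 comparisons. The number of arrays limits the precision, and p-values measure only the spread between pools. On simulated data for A20 over βgal before resection (17790 genes), 85 of 100 genes changed by 1 and 99 of 100 changed by 2 on the log2 scale were recovered, with 13 unchanged genes called. Its noise was independent between arrays, at each gene's fitted spread, and held no low-integrity arrays. The changed genes were picked at random. Their shares do not give the chance of a call for Igfbp1 or Igfbp2, whose SE in this comparison was 0.63 and 0.50.

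Named genes with values were all members, list genes called in any comparison, the ligands and receptors, and the 3 genes most alike to each member. Other list genes were named as not called. Igfbp5 and Elane were given values besides, after these were seen, and Acaa2 and Klf6 were picked for their values among the genes most alike. Members and lists were chosen with earlier results of these data known. Bile duct markers (4 of 5 tested), with sums of 1052 to 1414 over all 8 arrays, had 0 calls. The arrays read mouse transcripts and not the human A20 transgene. Alternatives tried were scaling, filter, offset, variance model, probe set summary, replicate block, arrays in the fit, arrays left out, β-actin covariate, an interval criterion and, added after seeing the data, a variance model over all probe sets kept.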

Additional observations from a re-analysis of the deposited data

How the results depend on the processing

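Each member kept its sign in every comparison under all alternatives run except for Igfbp2 and Igfbp4 values that were not called. With 1 array left out, Igfbp2 ranged between −1.26 and 0.15 for resection in βgal livers (0.15 without post-βgal replicate 2), between −0.75 and 0.55 for resection in A20 livers (0.55 without post-A20 replicate 1), between −0.68 and 0.026 for resection averaged over viruses (0.026 without post-βgal replicate 2, 7.2e-05 without post-A20 replicate 1), and between −0.25 and 1.16 for the difference of responses (−0.25 without post-βgal replicate 2, −0.20 without post-A20 replicate 2). Igfbp4 ranged between −0.054 and 0.23 for A20 over βgal before resection (−0.0086 when pre-A20 replicate 1 was dropped, −0.054 for pre-βgal replicate 2) and between −0.085 and 0.11 for resection in A20 livers (−0.085 without pre-A20 replicate 2, −0.030 without post-A20 replicate 2). There it was also −0.050 with quantile normalisation, −0.024 with median centring and −0.057 with the mean of the gene's probe sets.

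The number of the 4 members called for A20 over βgal after resection was 0, and 1 (Igfbp2) with the β-actin covariate or the interval criterion. For A20 over βgal before resection it was 1, and 0 without the variance trend, with the mean of probe sets, with only the 4 arrays compared, without both βgal replicate 1 arrays and with the variance model over all probe sets kept, with a range of 0 to 2 when 1 array was left out. For A20 over βgal averaged over times it was 1, and 0 without the variance trend and with the model over all probe sets, 2 with the interval criterion, and 0 to 2 with 1 array left out. For resection in A20 livers it was 1, and 2 (Igfbp1 and Igfbp3) with quantile normalisation, only the 4 arrays compared, the β-actin covariate or both βgal replicate 1 arrays left out, 0 without the variance trend, with the mean of probe sets and with the model over all probe sets, and 0 to 2 with 1 array left out. For resection averaged over viruses it was 1, and 0 to 1 with 1 array left out. It was 0 in every alternative for resection in βgal livers and for the difference of responses, where 0 and 1 of 4 had an unadjusted limma p under 0.05, beside 24% and 17.3% of all genes. The causes were not tested. Where an arm had 1 array left, its spread was taken to be that of the other groups.

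The sources used here do not state that arrays of one replicate number share mice, although resected and remnant liver can come from one animal. Differences between replicates correlated at 0.617 for post-βgal and pre-βgal but at −0.145 to 0.156 for the other pairs of groups. Replicate 1 was the low-integrity array in both βgal groups (β-actin ratios 3.64 and 7.0). Shared mice and RNA integrity therefore cannot be told apart in that correlation. With the replicate number as a block, 0 members were called for resection in A20 livers (Igfbp3 adjusted p = 0.0572), and with the block within each virus 2 were called (Igfbp1 adjusted p = 0.0118, and 0.0060 for resection averaged over viruses). No other member count changed with either block. The number of all genes called varied widely over the alternatives: 16 to 1118 for A20 over βgal after resection (252 in the reported fit), 18 to 2407 before it (823), 29 to 1187 for resection in A20 livers (358), 78 to 2660 in βgal livers (710), 211 to 3434 for A20 over βgal averaged over times (1528), 401 to 2506 for resection averaged over viruses (1092) and 0 to 270 for the difference of responses (5).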
